A study of Mus musculus with 7 samples.

Results

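The leptin receptor and 5 genes that carry or limit its signal were examined in pancreatic islets of db/db mice. The members were Lepr (the leptin receptor), Il6st (gp130), Jak2, Stat3, Socs3 and Ptpn1, matched by symbol to 6 of the 51912 Ensembl gene rows in the count table. The 3 AAV-Adipsin mice carried an AAV vector (adeno-associated virus) with the gene for adipsin, a complement protease made mainly by fat cells, and the 4 AAV-GFP mice a vector for green fluorescent protein. All 7 mice were db/db, islets were taken 4 weeks after the vector and cultured for 12 hours before RNA extraction, and each mouse gave 1 library. The sources used here do not give age, sex, strain background or the vector's promoter. No mouse with an intact leptin receptor was included, so no value below measures what the db allele does.

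Leptin is a hormone of fat cells. It binds a receptor of the same family as gp130, the shared chain through which interleukin-6, interleukin-11, LIF and related cytokines signal. Both receptors lack a kinase of their own and work through bound JAK kinases, which phosphorylate STAT3. STAT3 then enters the nucleus and switches on target genes, among them Socs3, whose product shuts the receptor down. The phosphatase PTP1B, encoded by Ptpn1, removes phosphate from JAK2. The db allele is a point mutation that adds an extra exon to the transcript of the long receptor form, which truncates its cytoplasmic tail, while short forms of the receptor are still made. Counts per gene do not separate these forms.

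Total counts ran from 29601707 to 43997400 per library. Cfd, the mouse gene of adipsin, had 839 to 3965 counts in AAV-Adipsin libraries and 0 to 1 in AAV-GFP libraries. The submitters' descriptions call replicate 1 of each group by its treatment, and every other library by db and a number, which makes 2 treatment-named and 5 db-numbered libraries. What this style of description stands for is not stated, but it goes with large differences between libraries, so values within each style are given where they bear on a member. Insulin genes and other beta cell markers summed to 163776 to 203790 CPM (counts scaled to a common library size) in each of the 7 libraries. In bulk tissue, fewer cells of a type and less RNA per cell cannot be told apart.

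Promoter sequences are shown for 3 genes, because Socs3 is both a target and an inhibitor of STAT3, and because Lepr and its neighbour Leprot lie side by side on chromosome 4 at very different transcript levels. RefSeq promoter windows of build GRCm38.p6 were found for all 6 members and for Leprot, and the 250 bases before each start site are used. RefSeq start sites can differ from the ends of the gene models used here for coordinates. The windows of Socs3 and Ptpn1 and the second window of Lepr lie inside those gene models. The first Lepr window and the Leprot window run partly into theirs. The motif TTCNNNGAA, the palindrome that STAT dimers bind, reads the same on both strands. It occurred in 1 of the 7 windows found for the members, that of Socs3 (chr11:117969367-117969616, minus strand), as TTCTTAGAA beginning 154 bases before the start. Capitals mark the motif.

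Socs3: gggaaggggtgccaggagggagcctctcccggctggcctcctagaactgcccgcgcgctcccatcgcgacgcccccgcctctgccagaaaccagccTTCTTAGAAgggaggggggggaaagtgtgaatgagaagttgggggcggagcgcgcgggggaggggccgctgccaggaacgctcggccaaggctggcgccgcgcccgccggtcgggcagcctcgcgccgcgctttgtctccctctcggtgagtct

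Over all 32851 RefSeq promoters of that length, 7.02% held the motif, and 5.82% of the 15246 that belong to genes tested here. A match of these letters is a description of the window and not a binding site. The next sequences are the first and second windows of Lepr (chr4:101717157-101717406 and chr4:101717656-101717905, plus strand) and the window of Leprot (chr4:101647533-101647782, plus strand), with each CG dinucleotide in capitals.

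Lepr, first window: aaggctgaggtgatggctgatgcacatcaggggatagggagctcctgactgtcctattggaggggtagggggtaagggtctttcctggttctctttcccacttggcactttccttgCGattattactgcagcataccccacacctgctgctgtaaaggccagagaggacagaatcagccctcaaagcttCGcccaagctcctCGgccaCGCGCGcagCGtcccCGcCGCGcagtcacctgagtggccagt

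Lepr, second window: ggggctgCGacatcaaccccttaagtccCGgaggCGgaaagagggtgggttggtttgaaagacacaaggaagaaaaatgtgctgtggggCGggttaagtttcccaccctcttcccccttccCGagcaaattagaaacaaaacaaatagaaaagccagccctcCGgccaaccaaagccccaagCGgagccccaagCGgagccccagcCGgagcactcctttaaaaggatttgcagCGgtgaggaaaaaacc

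Leprot: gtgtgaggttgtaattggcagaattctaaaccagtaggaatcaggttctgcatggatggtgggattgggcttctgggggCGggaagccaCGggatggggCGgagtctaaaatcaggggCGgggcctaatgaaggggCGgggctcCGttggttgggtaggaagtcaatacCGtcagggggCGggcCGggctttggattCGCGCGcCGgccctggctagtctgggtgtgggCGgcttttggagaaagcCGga

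The 2 Lepr windows held 10 CG dinucleotides each and the Leprot window 15. Those of Stat3, Il6st, Socs3, Jak2 and Ptpn1 held 13, 26, 26, 37 and 41. The median over promoters of genes tested was 14, with quartiles at 7 and 22, so the Lepr windows lay below the median and within that range.

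Lepr was close to the limit of detection in these islets, while the signalling genes downstream of it were well expressed. Lepr (ENSMUSG00000057722) lies on chromosome 4 from 101717404 to 101815352 of GRCm38, plus strand. In replicate order, AAV-Adipsin libraries held 9, 15 and 5 counts of it, and AAV-GFP libraries 3, 5, 12 and 15. No library exceeded 15 counts, and the treatments overlapped throughout. The 64 counts among 253052742 in all correspond to 0.253 CPM, with an exact 95% Poisson interval from 0.195 to 0.323 that covers counting error only. With 3 counts as the floor, at 0.0682 to 0.101 CPM per library, AAV-GFP replicate 1 stood at the floor.

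Levels of different genes were compared as CPM per kilobase of merged exons, averaged over all 7 libraries. On this scale Lepr was at 0.0383 ± 0.0246 (SD, n = 7), which exceeded 0.376% of the genes that passed the filter on low counts and had a known length. Il6st, the receptor chain related to it, was at 7.51 ± 1.13, a ratio of means of 196, with ratios from 95.5 to 641 in single libraries. Leprot, which encodes a small membrane protein that limits the surface display of the leptin receptor, ends 58039 bases before Lepr begins. Leprot was at 32.9 ± 2.23 CPM per kilobase (SD, n = 7), a ratio of means of 858 to Lepr. The order of the per-length levels of the members was Stat3 (34.3 ± 2.31), Ptpn1 (28.2 ± 4.69), Jak2 (16.2 ± 2.66), Socs3 (14.4 ± 2.74), Il6st and Lepr (SD, n = 7 each). Jak2 was above Socs3 in 4 of 7 libraries, so these neighbours did not differ beyond their spread, and with the longest transcript as the length Socs3 (16.3) came out just above Jak2 (16.2). Stat3 was above Ptpn1 in 7 of 7 libraries although their ranges overlapped.

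Stat3 and Socs3 had the highest per-length means of their families, and Lepr the lowest but 1 of the receptors. Stat3, the STAT factor of leptin and interleukin-6 signalling, ranged from 31.9 to 38.7 CPM per kilobase, above the whole range of Stat5b (12.1 to 15.7), the next of 7 STAT genes. Jak2, the kinase that the leptin receptor binds, was second of 4 JAK genes at 12.6 to 20.2, below Jak1 at 24.0 to 30.3, and these ranges did not overlap. Socs3 was first of 8 SOCS genes by its mean, but it was above Socs7 (12.5 ± 1.41, SD, n = 7) in only 5 of 7 libraries, so these did not separate. Ptpn1 was second of 6 tyrosine phosphatase genes in the list, below Ptpn11 (39.3 ± 3.83, SD, n = 7), the SHP2 phosphatase, in 6 of 7 libraries.

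Among 8 receptor genes, Il6ra, the interleukin-6 binding chain that pairs with gp130, was highest at 33.1 ± 6.01 CPM per kilobase (SD, n = 7), and Cntfr, the ciliary neurotrophic factor chain, followed at 18.0 ± 4.51. Il6st came next, and then Lifr (3.18 ± 0.495), Il11ra1 (1.77 ± 0.241) and Osmr (0.561 ± 0.278; SD, n = 7 each), none of them overlapping its neighbour. Lepr was below Osmr in 7 of 7 libraries and above Il27ra, the chain for interleukin-27, in 6 of 7. The leptin gene Lep had 0 counts in all 7 libraries, which allows up to 0.0119 CPM over their sum.

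**Figure D1:**
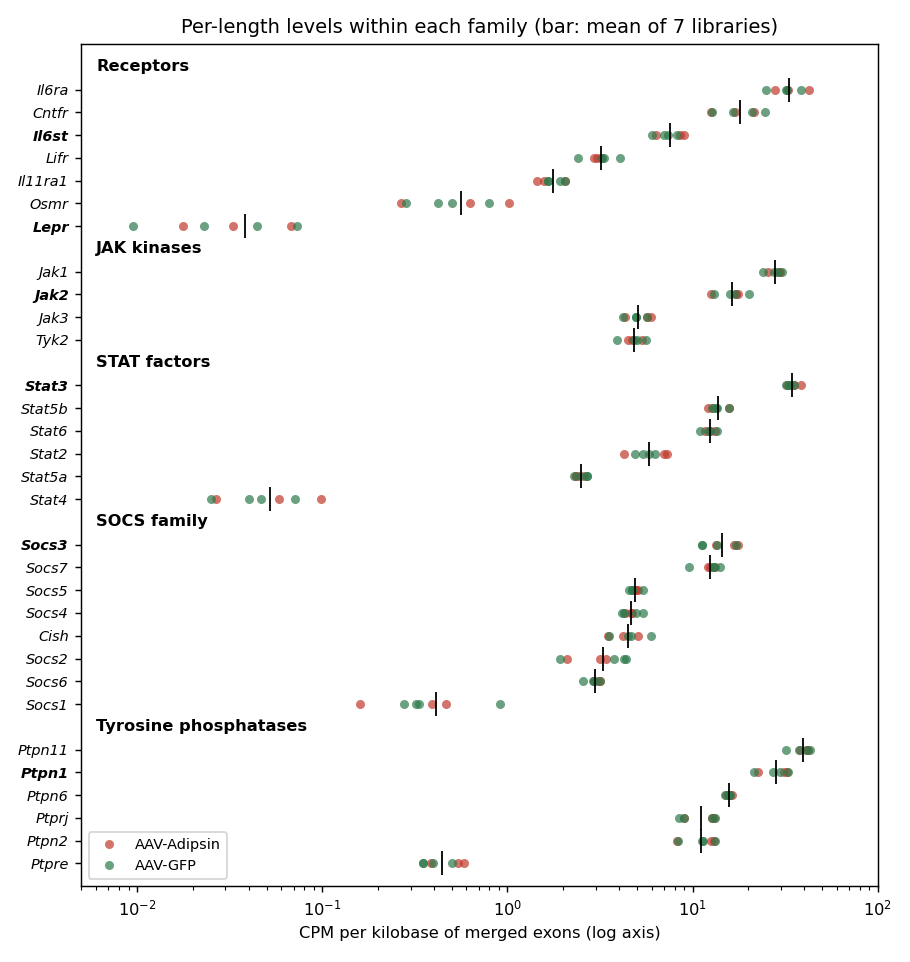
Per-length levels (CPM per kilobase of merged exons, log axis) of receptor, JAK, STAT, SOCS and tyrosine phosphatase genes, with 1 point per library coloured by treatment and a bar at the mean of 7 libraries; members are in bold, and not every gene of each family is drawn. Lepr sits near 0.0383, while Stat3 and Socs3 have the highest means of their families at 34.3 and 14.4.

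The comparison of treatments asks which islet transcripts differ between mice given the adipsin vector and mice given the GFP vector. No member passed. With edgeR's quasi-likelihood test and Benjamini-Hochberg adjustment over all 16504 genes tested, 0 of 6 members had an adjusted p under 0.05, and 0 had an unadjusted p under 0.05. DESeq2 and limma-voom also called 0. Over all genes only Cfd was called, or 0.00606%, and 191 had an unadjusted edgeR p under 0.05. A count of 0 among 6 therefore carries no information on the members. The groups did not overlap for 0 of 6 members, against 2.74% of all genes (1.16% higher and 1.58% lower). All 6 members passed the filter on low counts, Lepr only just. It could not be tested without AAV-GFP replicate 3 or 4, where it fell under the filter. The 95% intervals given below come from the F statistic and bound the differences that remain possible.

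Receptors come first. Mean Lepr levels were 0.278 ± 0.179 CPM for AAV-Adipsin (SD, n = 3) and 0.264 ± 0.196 CPM for AAV-GFP (SD, n = 4). The fitted log2 fold change was 0.09 (SE 0.69), with a 95% interval from -1.49 to 1.66 and an adjusted p of 1.00 by edgeR. That interval is over 3 log2 units wide, and the counting error alone gives a rate ratio of 1.10 with a 95% interval from 0.647 to 1.85. Neither interval excludes a change in either direction, and the sign turned when single libraries were left out (AAV-Adipsin replicate 2, -0.51; AAV-GFP replicate 1, -0.26; AAV-GFP replicate 2, -0.06). Il6st (ENSMUSG00000021756, chromosome 13, 112464070 to 112510086, plus strand) had 70.3, 99.9 and 95.3 CPM in AAV-Adipsin libraries and 67.3, 81.5, 91.0 and 77.8 CPM in AAV-GFP libraries. Adipsin replicates 2 and 3 were the highest of all and replicate 1 the second lowest. The means were 88.5 ± 15.9 CPM in AAV-Adipsin (SD, n = 3) and 79.4 ± 9.81 CPM in AAV-GFP (SD, n = 4), a log2 fold change of 0.16 (SE 0.14; interval -0.17 to 0.48; edgeR adjusted p = 1.00). With description style as a batch, Il6st was at 0.18 on the log2 scale (SE 0.07), at an unadjusted edgeR p of 0.0464 and an adjusted p of 1.00.

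Neither the kinase nor the transcription factor passed. Jak2 (ENSMUSG00000024789, chromosome 19, 29251828 to 29313080, plus strand) had 63.2, 86.5 and 89.0 CPM in AAV-Adipsin libraries and 65.9, 101, 85.7 and 80.4 CPM in AAV-GFP libraries, and the lowest library of each group was replicate 1. Its log2 fold change was -0.07 (SE 0.16; interval -0.44 to 0.31; edgeR adjusted p = 1.00). Stat3 had 309, 336 and 369 CPM in AAV-Adipsin libraries and 304, 319, 335 and 317 CPM in AAV-GFP libraries. It was the steadiest member, with a log2 fold change of 0.08 (SE 0.09) and the narrowest interval, from -0.11 to 0.28 (edgeR adjusted p = 1.00). Stat3 (ENSMUSG00000004040, chromosome 11, 100885098 to 100939540, minus strand) shares 72 exonic bases with Stat5a on the opposite strand. The strand setting of the counting is not given, so reads there cannot be assigned with certainty.

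Of the inhibitors, Socs3 (ENSMUSG00000053113, chromosome 11, 117966079 to 117970047, minus strand) had 38.7, 48.5 and 51.0 CPM in AAV-Adipsin libraries and 39.1, 32.3, 32.6 and 49.3 CPM in AAV-GFP libraries. The libraries AAV-Adipsin 2, AAV-Adipsin 3 and AAV-GFP 4 were high, AAV-GFP 2 and 3 low, and both replicates 1 in between. The means were 46.1 ± 6.48 CPM in AAV-Adipsin (SD, n = 3) and 38.3 ± 7.96 CPM in AAV-GFP (SD, n = 4). The log2 fold change of 0.26 (SE 0.16; interval -0.11 to 0.64) was the largest of the 6 in size, with an unadjusted edgeR p of 0.140 and an adjusted p of 1.00. In the treatment-named pair Socs3 differed by -0.01 in log2 CPM, and among the db-numbered libraries by 0.41. Ptpn1 (ENSMUSG00000027540, chromosome 2, 167932057 to 167979385, plus strand) had 124, 173 and 180 CPM in AAV-Adipsin libraries and 118, 163, 150 and 182 CPM in AAV-GFP libraries, overlapping almost completely. Its log2 fold change was 0.05 (SE 0.17; interval -0.33 to 0.43; edgeR adjusted p = 1.00).

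**Figure D2:**
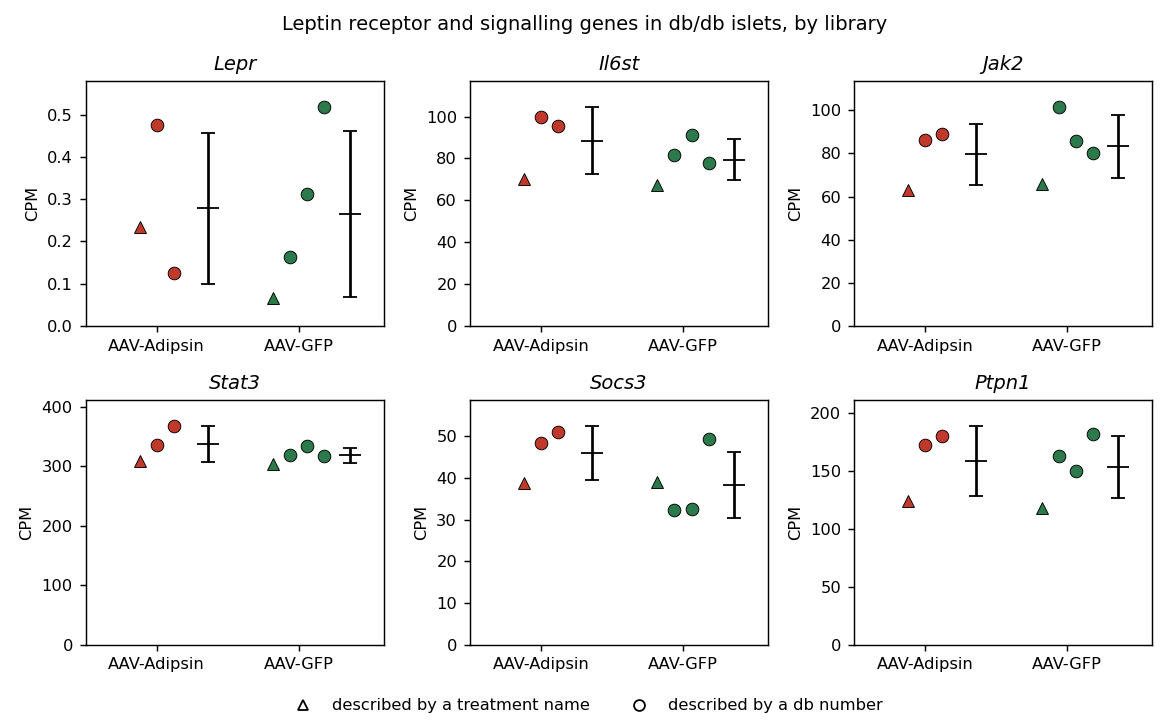
CPM of each member in each library, with the 3 AAV-Adipsin libraries left of the 4 AAV-GFP libraries, triangles for treatment-named and circles for db-numbered libraries, and a bar at the mean with its SD. Treatments overlap in all 6 panels, and the triangles are the lowest points for Il6st, Jak2, Stat3 and Ptpn1.

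The other genes of the pathway did not pass either. Of 74 genes in 6 lists, 66 were tested, 0 were called by edgeR, DESeq2 or limma-voom, and 0 had an unadjusted edgeR p under 0.05. Over all 16504 genes tested, only 191 had an unadjusted edgeR p under 0.05, so these counts of 0 carry little information on the pathway. The median log2 fold change of the 66 was 0.01, against -0.01 over all genes tested. Among the ligands, Ctf1 (cardiotrophin-1) was at -0.30 (SE 0.16) and Lif at 0.69 (SE 0.87). Of the receptors and their relatives, Osmr was at 0.35 (SE 0.47), Leprot at -0.07 (SE 0.09) and its paralog Leprotl1 at -0.10 (SE 0.08). Of the JAK and STAT genes, Stat2 was at 0.15 (SE 0.18) and Jak3 at 0.11 (SE 0.14). Of the adaptors and effectors, the ERK kinase Mapk3 was at -0.13 (SE 0.13) and the insulin receptor substrate Irs1 at 0.18 (SE 0.23). The inhibitors with the smallest p were the phosphatase Ptpre at 0.33 (SE 0.21) and the PIAS proteins Pias1 at -0.10 (SE 0.08) and Pias2 at -0.08 (SE 0.07). Of 19 STAT3 targets tested, 13 were above 0 with a median of 0.05, which ran from -0.056 without AAV-Adipsin replicate 2 to 0.40 without AAV-Adipsin replicate 1, and Fos (0.29, SE 0.23), Bcl6 (0.24, SE 0.21) and Il4ra (0.27, SE 0.24) had the smallest p.

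**Figure D3:**
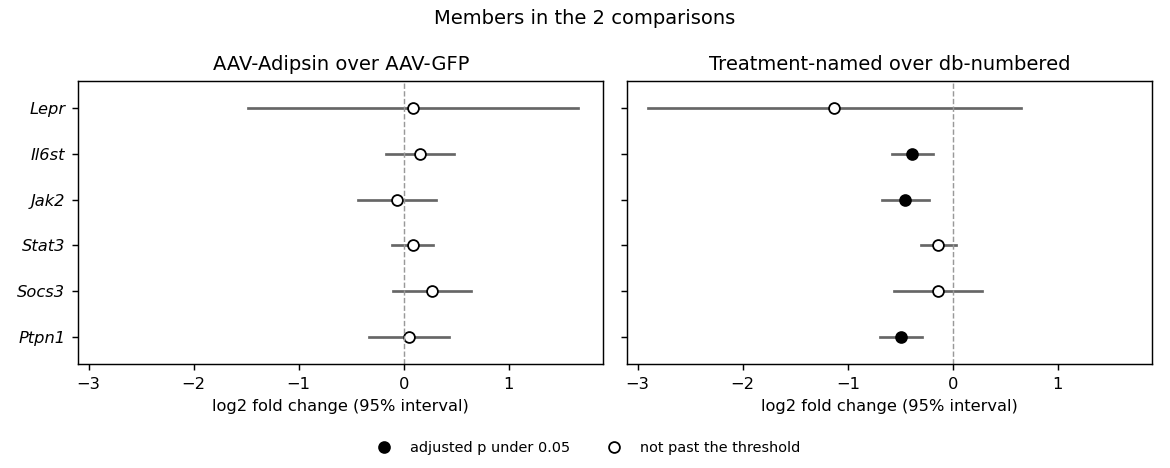
Log2 fold change of each member with its 95% interval, for AAV-Adipsin over AAV-GFP on the left and for treatment-named over db-numbered libraries on the right; filled points have an adjusted p under 0.05. On the left all intervals include 0, and on the right those of Il6st, Jak2 and Ptpn1 lie below it.

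Il6st, Jak2 and Ptpn1 were called by description style. With treatment in the model, 3 of 6 members had lower values in the 2 treatment-named libraries than in the 5 db-numbered libraries (edgeR adjusted p under 0.05), where 5.57% of all genes were called lower and 9.79% in either direction. DESeq2 and limma-voom also called 3, against 2528 and 1849 of the 16504 genes tested. What the styles mark is not known, and 1 side holds only 2 libraries. Values did not overlap for 4 of 6 members, all lower, against 18.9% of all genes in that direction and 37.6% in both.

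Ptpn1 fell to 118 and 124 CPM in treatment-named libraries, against 150 to 182 CPM and a mean of 170 ± 13.1 CPM in db-numbered libraries (SD, n = 5). Its log2 fold change was -0.49 (SE 0.09; edgeR adjusted p = 0.0165). Jak2 fell to 63.2 and 65.9 CPM in treatment-named libraries, against 80.4 to 101 CPM in db-numbered libraries, a log2 fold change of -0.45 (SE 0.10; edgeR adjusted p = 0.0304). Il6st fell to 67.3 and 70.3 CPM in treatment-named libraries, against 77.8 to 99.9 CPM in db-numbered libraries, a log2 fold change of -0.39 (SE 0.08; edgeR adjusted p = 0.0319). These calls rest on few libraries. Without 1 library the call of Il6st held only without AAV-GFP replicate 4, that of Jak2 without AAV-GFP replicate 2 or 4, and that of Ptpn1 without AAV-GFP replicate 2, 3 or 4, although the log2 fold changes stayed between -0.48 and -0.31, -0.49 and -0.40, and -0.52 and -0.45.

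The other members were not called. Stat3 was at 304 and 309 CPM in treatment-named libraries, against 317 to 369 CPM in db-numbered libraries, without overlap, but its log2 fold change of -0.14 (SE 0.07) had an edgeR adjusted p of 0.250. Socs3 was at 38.7 and 39.1 CPM in treatment-named libraries, inside the range of 32.3 to 51.0 CPM in db-numbered libraries, with -0.14 (SE 0.18; edgeR adjusted p = 0.643). Lepr had 12 counts in the treatment-named and 52 in the db-numbered libraries, a rate ratio of 0.478 with a 95% counting interval from 0.232 to 0.908. The spread between mice is wider than that interval allows for, and the fitted value of -1.13 (SE 0.76; edgeR adjusted p = 0.372) did not pass, and it was -2.24 without AAV-Adipsin replicate 1 and -0.32 without AAV-GFP replicate 1. Leprot was at 0.03 (SE 0.09; edgeR adjusted p = 0.874), with 61.6 and 64.4 CPM in treatment-named libraries and 56.9 to 70.3 CPM in db-numbered libraries.

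Around the members, 13 of 66 pathway genes were called by description style, 11 lower (background 5.57%) and 2 higher (background 4.22%), with a median of -0.23 against -0.01 over all genes tested. DESeq2 called 21 and limma-voom 12, against 2528 and 1849 of the 16504 genes tested. An unadjusted edgeR p under 0.05 was found for 32, against 4658 of all genes tested. Among inhibitors, Socs2, a SOCS protein of growth hormone signalling, fell to 18.3 and 20.0 CPM in treatment-named libraries, against 36.3 ± 5.02 CPM in db-numbered libraries (SD, n = 5; log2 fold change -0.89, edgeR adjusted p = 0.00848). Ptpn2, the phosphatase nearest in kind to Ptpn1, fell to 25.6 and 26.2 CPM, against 38.4 ± 2.97 CPM (SD, n = 5; -0.57, edgeR adjusted p = 0.0123), and Cish was at -0.46 (adjusted p = 0.0708 by edgeR and 0.0209 by DESeq2). Osmr, the oncostatin M receptor chain, fell by 1.29 on the log2 scale (edgeR adjusted p = 0.0475), Stat2 by 0.47 (0.0470) and the adaptor Grb2 by 0.47 (0.0405). The 2 that rose were Stat5b, the STAT of growth hormone and prolactin, by 0.28 (edgeR adjusted p = 0.0341) and Irs2, an insulin receptor substrate of beta cells, by 0.46 (0.0438). Il6ra, Il11ra1, Jak1 and the adaptor Sh2b1 did not pass by edgeR, at 0.43, 0.34, -0.23 and 0.19, while DESeq2 called Il6ra (adjusted p = 0.00885) and Jak1 (0.0169). With single libraries left out, the call of Socs2 held in 6 of 7 fits and that of Ptpn2 in 4, while those of Osmr and Stat2 held in 2 and those of Grb2, Stat5b and Irs2 in 1. Leaving out AAV-GFP replicate 1 left 39 calls over all genes, and leaving out AAV-Adipsin replicate 1 left 55, fits in which the lone treatment-named library is assumed to vary like the others.

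Genes that STAT3 is known to activate included several with wide gaps between the styles. Of 19 tested, 6 were called lower in treatment-named libraries and 18 had a log2 fold change below 0, with a median of -0.77. Over all genes tested, 5.57% were called lower and the median was -0.01. With single libraries left out, the median of the targets ran from -0.92 to -0.37. Leaving out AAV-GFP replicate 4 moved the median to -0.37, and the count called lower was 0 without AAV-Adipsin replicate 1 or AAV-GFP replicate 1, 2 without AAV-Adipsin replicate 2 or 3 and 8 without AAV-GFP replicate 4. Icam1, an adhesion molecule, was at 2.89 and 3.01 CPM in treatment-named libraries, against 23.4 to 70.7 CPM in db-numbered libraries, a log2 fold change of -3.97 (SE 0.52; edgeR adjusted p = 0.0122). Bcl3, a nuclear cofactor of NF-kB, was at 34.9 and 35.1 CPM in treatment-named libraries, against 64.1 to 96.9 CPM (-1.14, SE 0.18; edgeR adjusted p = 0.0122), and Cebpd, an acute-phase transcription factor, at 22.0 and 23.3 CPM, against 60.8 to 150 CPM (-2.10, SE 0.39; edgeR adjusted p = 0.0274). The other 3, named after their values were seen, were Junb at -0.98 (edgeR adjusted p = 0.0291), the iron-binding acute-phase protein Lcn2 at -4.67 (0.0298) and the serum amyloid gene Saa3 (0.0303). Saa3 had 1 and 0 counts in treatment-named libraries, against 17 to 111 counts in db-numbered libraries, a rate ratio of 0.00667 with a 95% counting interval from 1.68e-04 to 0.0374. With single libraries left out, the calls of Icam1 and Bcl3 held in 5 of 7 fits and those of Cebpd, Junb, Lcn2 and Saa3 in 3. Socs3, also a STAT3 target, did not pass in any of these fits. Some other listed targets moved less, among them Pim1 at -0.10, Bcl2l1 at -0.17, Myc at -0.28 and Vegfa at 0.17. These were also named after their values were seen, and none was called by edgeR or DESeq2.

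Il11, Il6 and Lif varied widely from mouse to mouse, while Ctf1, also a gp130 ligand, ran only from 9.58 to 15.3 CPM. Interleukin-11 (Il11), named after its values were seen, had 7.83, 38.7 and 31.0 CPM in AAV-Adipsin libraries and 7.09, 4.71, 5.58 and 69.9 CPM in AAV-GFP libraries. Il6 followed with 3.01, 9.92 and 8.75 CPM in AAV-Adipsin libraries and 2.00, 1.88, 1.79 and 17.7 CPM in AAV-GFP libraries. Both were high in AAV-Adipsin 2, AAV-Adipsin 3 and AAV-GFP 4, the same 3 libraries in which Socs3 was highest. Lif had 2.25, 21.7 and 17.0 CPM in AAV-Adipsin libraries and 3.22, 5.52, 5.64 and 19.6 CPM in AAV-GFP libraries. By description style Lif was at -2.27 (SE 0.70; edgeR adjusted p = 0.0970), Il6 at -1.73 (SE 1.06; 0.346) and Il11 at -2.02 (SE 1.26; 0.355). Clcf1, a cardiotrophin-like cytokine, averaged 2.13 CPM in treatment-named libraries, against 4.30 ± 2.18 CPM in db-numbered libraries (SD, n = 5; edgeR adjusted p = 0.245). None of these ligands passed by edgeR, while DESeq2 called Lif (adjusted p = 0.0143).

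**Figure D4:**
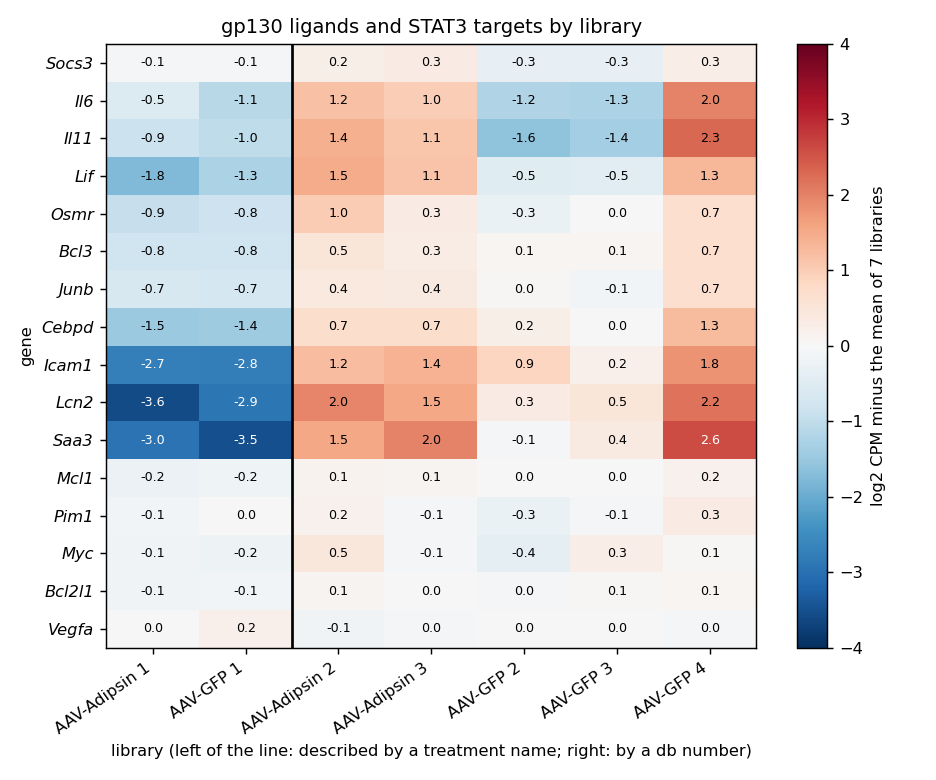
Log2 CPM minus the mean of 7 libraries for Socs3, gp130 ligands, Osmr and STAT3 targets, with the 2 treatment-named libraries left of the line and the 5 db-numbered libraries right of it. Lcn2, Icam1, Saa3 and Cebpd are lowest in the treatment-named libraries, and Il6, Il11 and Socs3 are highest in AAV-Adipsin 2, AAV-Adipsin 3 and AAV-GFP 4.

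Summed markers of other cell types overlapped between description styles, except those of duct and alpha cells. Summed over 6 macrophage markers the level was 103 to 113 CPM in treatment-named libraries and 104 to 242 CPM in db-numbered libraries, with 6 of 6 below 0 and 0 called by edgeR, while DESeq2 called Mpeg1 (adjusted p = 0.0428). For 7 stellate or pericyte markers it was 136 to 153 CPM in treatment-named libraries and 91.4 to 345 CPM in db-numbered libraries, and for 6 endothelial markers 328 to 379 CPM and 313 to 507 CPM, again with 7 of 7 and 6 of 6 below 0 and 0 called by edgeR or DESeq2. For 6 acinar markers the level was 3291 to 4366 CPM in treatment-named libraries and 2249 to 14669 CPM in db-numbered libraries, with 6 of 6 below 0. For 4 duct markers it was 329 to 360 CPM in treatment-named libraries and 380 to 960 CPM in db-numbered libraries, with 4 of 4 below 0, and for 4 alpha cell markers 8469 to 8591 CPM in treatment-named libraries and 5748 to 8144 CPM in db-numbered libraries, with 2 of 4 below 0. No acinar, duct or alpha cell marker was called by edgeR or DESeq2. The part of these cells in the lower Il6st, Jak2 and Ptpn1 was not tested. Of 8 beta cell markers, 5 lay above 0 and 3 below. Slc2a2 and Iapp were called higher in treatment-named libraries, by 0.85 and 0.40 on the log2 scale (edgeR adjusted p = 0.0261 and 0.0225), where 4.22% of all genes were called higher. The 3 below 0 were Ins1 (-0.40), G6pc2 (-0.17) and Pdx1 (-0.04), none of them called.

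By treatment, 6 of 6 macrophage markers lay above 0, with summed levels of 113 to 242 CPM in AAV-Adipsin and 103 to 148 CPM in AAV-GFP. They ran from 0.03 for C1qa to 0.80 for Adgre1, and Lyz2 reached 61.6 CPM in a single AAV-Adipsin library (mean 33.7 ± 24.2 CPM, SD, n = 3). In the treatment-named pair, Csf1r and Adgre1 differed by -0.13 and -0.30 in log2 CPM. Above 0 by treatment were also 6 of 6 endothelial markers, with 379 to 473 CPM in AAV-Adipsin and 313 to 507 CPM in AAV-GFP. No macrophage or endothelial marker was called by edgeR or DESeq2, and their part in the Socs3 and Il6st values was not tested. Above 0 were also 4 of 4 alpha cell and 6 of 7 stellate or pericyte markers, but 0 of 8 beta cell and 0 of 6 acinar markers. For delta and duct cells it was 1 of 4 and 2 of 4. None of these was called either. Of 3 adipocyte markers, Plin1 and Adipoq had at most 2 counts in any library, while Fabp4 was detected in every library, at up to 46.1 CPM. Of 4 lymphocyte markers, Cd3e had 0 counts in all 7 libraries, and the other 3 lay above 0 by treatment with a median of 0.71. Their summed level was 3.63 to 7.70 CPM in AAV-Adipsin and 2.47 to 3.58 CPM in AAV-GFP, without overlap. Most of this sum was Ptprc, with means of 4.12 CPM in AAV-Adipsin and 2.51 CPM in AAV-GFP (log2 fold change 0.71), which also sets the median. Ptprc (CD45) marks all leukocytes, macrophages included, so the sum is not particular to lymphocytes. Cd79a was at 0.01, with means of 0.275 and 0.268 CPM. Ighm, with means of only 0.602 and 0.133 CPM, had a log2 fold change of 2.12 (edgeR unadjusted p = 0.0418, adjusted p = 1.00). Each of these 3 genes overlapped between treatments on its own, while 2.74% of all genes tested did not.

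The genes whose profile over the 7 libraries lay nearest to that of Lepr, by root mean square distance between centred log2 CPM values, were H2-Ab1 (0.37), an MHC class II chain, the transcription factor Cebpa (0.39) and Gdpd5 (0.40), among 11917 genes ranked. These distances compare with a standard deviation of 0.82 for Lepr itself and rest on 3 to 15 counts per library. For Socs3, with a standard deviation of 0.28, the nearest were Parm1 (0.049), Pard6g (0.077) and the adenylyl cyclase Adcy4 (0.094).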

How the data were processed

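Messenger RNA of islets from 7 mice was sequenced, and each mouse is a separate biological replicate per the labels. Per the labels' protocols, the library kit was a stranded one for mRNA. Reads were aligned with STAR to mm10 (GRCm38) per the submitters' processing notes, and the sources used here do not give the STAR version, the counting program and its strand setting, or the annotation. The values are raw read counts per gene as deposited, with 0 sample columns unused. Of 51912 gene identifiers 51719 were matched to GENCODE mouse release 21 (GRCm38) for symbols, coordinates and lengths.

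Genes were filtered with filterByExpr and scaled with edgeR's TMM factors. They were tested in R 4.3.3 with edgeR 4.0.16 (robust quasi-likelihood F test, Benjamini-Hochberg over all genes, threshold 0.05). The first model held treatment alone, the second treatment and description style. Standard errors come from the F statistic. CPM used TMM factors, and log2 CPM a prior count of 2. Alternatives were other scalings and filters, DESeq2 1.42.0, limma-voom (limma 3.58.1), description style as a batch, a replicate block, and removal of libraries. DESeq2 with description style as a batch was added after the data were seen. Tests were tried on simulated counts with 200 changed genes.

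The members and lists were chosen with earlier results of these data known. Named genes are the members, Leprot, in each list up to 3 genes with the smallest p in each model, and the 3 nearest profiles to Lepr and Socs3 with a mean log2 CPM of at least 1. Results of some genes named by this rule are not reported here.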

Additional observations from a re-analysis of the deposited data

Results flagged for a closer look

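In the AAV-GFP group of 4, AAV-GFP replicate 4 stood far above the other libraries for 2 of 40 genes checked on the log2 CPM scale. The gap to the nearest library, divided by the whole range of the group, was 0.953 for Il6 and 0.849 for Il11, both above Dixon's 95% critical value for 4 samples. Chance flags about 1 in 20 groups. None of the 6 members was flagged in this way, with values from 0.374 for Lepr to 0.555 for Ptpn1. An interaction of treatment and description style was tested with edgeR for the members, and the smallest unadjusted p was 0.257 (Lepr, adjusted p = 1.00), with 0 genes called over the whole table.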

How the results depend on the processing

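Over all genes, the treatment comparison called 1 gene, but 4 with DESeq2, 5 with DESeq2 and description style as a batch (added after the data were seen), and 0 with limma-voom, without a filter on low counts, without both treatment-named libraries, and 0 to 1 when single libraries were left out. No member was called under any of these. Without both treatment-named libraries the log2 fold change of Lepr was -0.16. Leaving out 1 library gave -0.51 to 0.46 for Lepr, -0.15 to 0.074 for Jak2, -0.042 to 0.20 for Ptpn1 and -0.15 to 0.73 for Osmr, and the cause was not tested. The description-style comparison called 1616 genes, 2528 with DESeq2 and 39 to 4348 when single libraries were left out. The range was -2.24 to -0.32 for Lepr, -0.48 to -0.31 for Il6st, -0.49 to -0.40 for Jak2, -0.52 to -0.45 for Ptpn1, -0.36 to 0.041 for Socs3 and -0.010 to 0.065 for Leprot. With the longest transcript as length, the per-length levels were 9.60 for Il6st, 54.1 for Stat3 and 36.3 for Ptpn1. Lepr could not be fitted without AAV-GFP replicate 3 or 4 or at 1 CPM in 3 libraries.

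Replicates with the same number deviated together for number 1 (r = 0.66 across genes) and not for 2 (-0.01) or 3 (0.01). Number 1 is also the treatment-named pair, so pairing and description style cannot be told apart there. Low values of r in groups of 3 and 4 cannot exclude pairing. With the replicate number as a block, where AAV-GFP replicate 4 has no partner, 1 gene was called. The log2 fold changes of Lepr, Il6st, Jak2, Stat3, Socs3 and Ptpn1 were 0.57, 0.14, -0.08, 0.08, 0.40 and 0.14, none past the threshold.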
